A study of Mus musculus with 4 samples.

Results

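The BCL2 family decides whether a cell keeps its mitochondria intact or starts apoptosis, and its transcripts were read here in blood progenitors of the mouse foetal liver. The rule named 9 genes and took every probe set annotated to 1 of them alone. For 8 of the 9 genes, Bcl2, Bcl2l1, Mcl1, Bcl2l11, Bid, Bbc3, Pmaip1 and Bak1, it found 27 probe sets out of 45037 that are not controls. Bax is not analysed here. The rule names the members by function and uses no measured value, though they were chosen with earlier results of these data known.

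The samples were 4 Affymetrix arrays of LSK cells, sorted from E13.5 foetal liver as lacking lineage markers while carrying cKit and Sca1. All embryos were female with the genotype Hes1 GFP/WT, so that 1 Hes1 allele carries a GFP reporter, and the cells of every array therefore have 1 altered Hes1 allele. Sorting on GFP gave the groups compared here: 3 arrays carry the label HES1-GFP negative, and the remaining array HES1-GFP positive. Hes1 is a transcriptional repressor induced by Notch, and the question set by the labels is how cells with and without reporter signal differ. From each sample 5 ng of RNA was amplified. Nothing in the labels ties the 3 negative arrays to separate litters, so p-values measure only the spread between these arrays, which may be technical. The number of arrays limits all precision, and an exact one-sided permutation over 4 arrays cannot reach a p under 0.25.

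BCL2 family proteins fall into 3 roles. Bcl2, Bcl2l1 (BCL-XL) and Mcl1 keep cells alive by binding and holding the pro-death members. Bak1 and Bax are the effectors that open the outer mitochondrial membrane and let cytochrome c out. The BH3-only proteins are the sensors that start the process, Bcl2l11 (BIM) after loss of cytokine signals, Bbc3 (PUMA) and Pmaip1 (NOXA) after p53 activation among other stresses, and Bid when death receptors have cut it. Blood stem and progenitor cells depend strongly on Mcl1, while lymphoid cells that receive interleukin 7 signals rely on Bcl2.

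Promoter sequence is shown first for Bcl2l11, because FOXO transcription factors, which cytokine signals hold out of the nucleus, are known activators of this gene and because 1 of its probe sets, 1426334_a_at, had the widest range over the arrays of all 27. The gene has more than 1 RefSeq start site, and the 250 bases before another (chr2:128127325-128127574) hold 0 matches of the FOXO motif GTAAACA. The 250 bases before the start site with a match (GRCm38.p6, plus strand, chr2:128125788-128126037) read as follows, 5′ to 3′, with the FOXO motif GTAAACA in capitals.
Bcl2l11: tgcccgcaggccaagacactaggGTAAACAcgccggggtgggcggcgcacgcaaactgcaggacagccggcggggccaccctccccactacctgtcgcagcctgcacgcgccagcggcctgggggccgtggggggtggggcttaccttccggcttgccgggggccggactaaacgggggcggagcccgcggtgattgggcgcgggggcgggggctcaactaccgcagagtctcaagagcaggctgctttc

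GTAAACA was searched on both strands in the same 250-base window of 12 start sites of 7 of the members, from RefSeq. It was found in 2 of these 12 windows, 1 of Bcl2l11 and 1 of Bbc3, and in 3.17% of all 32851 windows in the table. The Bbc3 match lies on the opposite strand, 167 bases before a start site (GRCm38.p6, plus strand, chr7:16310083-16310112). Its 30 bases are shown beside those of the N box, CACNAG, the motif that HES repressors bind, of which Bid has 2 before its start site (GRCm38.p6, minus strand, chr6:120916998-120917027 and chr6:120916825-120916854). The same Bbc3 window has 2 N boxes as well, not printed here.
Bbc3, FOXO motif in capitals: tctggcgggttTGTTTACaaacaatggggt
Bid, upstream N box in capitals: acaccccatcctCACGAGggcaggtcgccc
Bid, N box next to the start site in capitals: cggggctcccgggcgagCACGAGgaaaggt

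The N box was found in 5 of the 12 windows, of 5 genes (Bak1, Bbc3, Bcl2l1, Bcl2l11 and Bid), beside 36.7% of all windows. In the printed Bcl2l11 window the N box begins 234 bases before the start site and the FOXO motif 227, so they do not overlap. A match describes the letters only and says nothing about binding in these cells.

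The reporter gene went against the labels. The log2 intensity of Hes1 was 8.78, 9.07 and 6.70 in negative replicates 1, 2 and 3, and 6.57 in the array labelled positive. Negative replicate 3 was thus near the array labelled positive and far from the other negative arrays, so "the array labelled positive" is used throughout and every direction is that of the labels. Median intensities of the 4 arrays were 74.7 to 76.1 on the deposited linear scale. Of 9 progenitor markers, 8 were above 6.23 (log2), which is the array-wide median level, in every array, while Slamf1 fell short of it in negative replicate 2, at 5.75. Ly6a, the gene of Sca1, is not analysed here. The 2 brightest are given: Flt3, a cytokine receptor, was at 12.12, 11.95, 11.63 and 11.07 (log2, negative replicates 1 to 3, then the array labelled positive), and Runx1 at 11.59, 11.49, 11.38 and 11.46.

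None of the members differed past the threshold between the labels. limma called 0 of 27 member probe sets at an adjusted p under 0.05, where 0% of all 45037 were called, and 0 of 8 member genes, where 0% of all 18193 genes were called. At an unadjusted p under 0.05 limma gave 0 member probe sets and 2032 of all. With 16 added before log2 it gave 1 (Bid 1417045_at) and 2281 of all, and without negative replicate 2 it gave 2 (Bcl2l11 1426334_a_at and 1456006_at) and 1873 of all. The test rests on 2 residual degrees of freedom and assumes that the lone positive array varies like the negative ones. The median difference was -0.02 log2 units over the member probe sets and -0.01 over all.

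**Figure D1:**
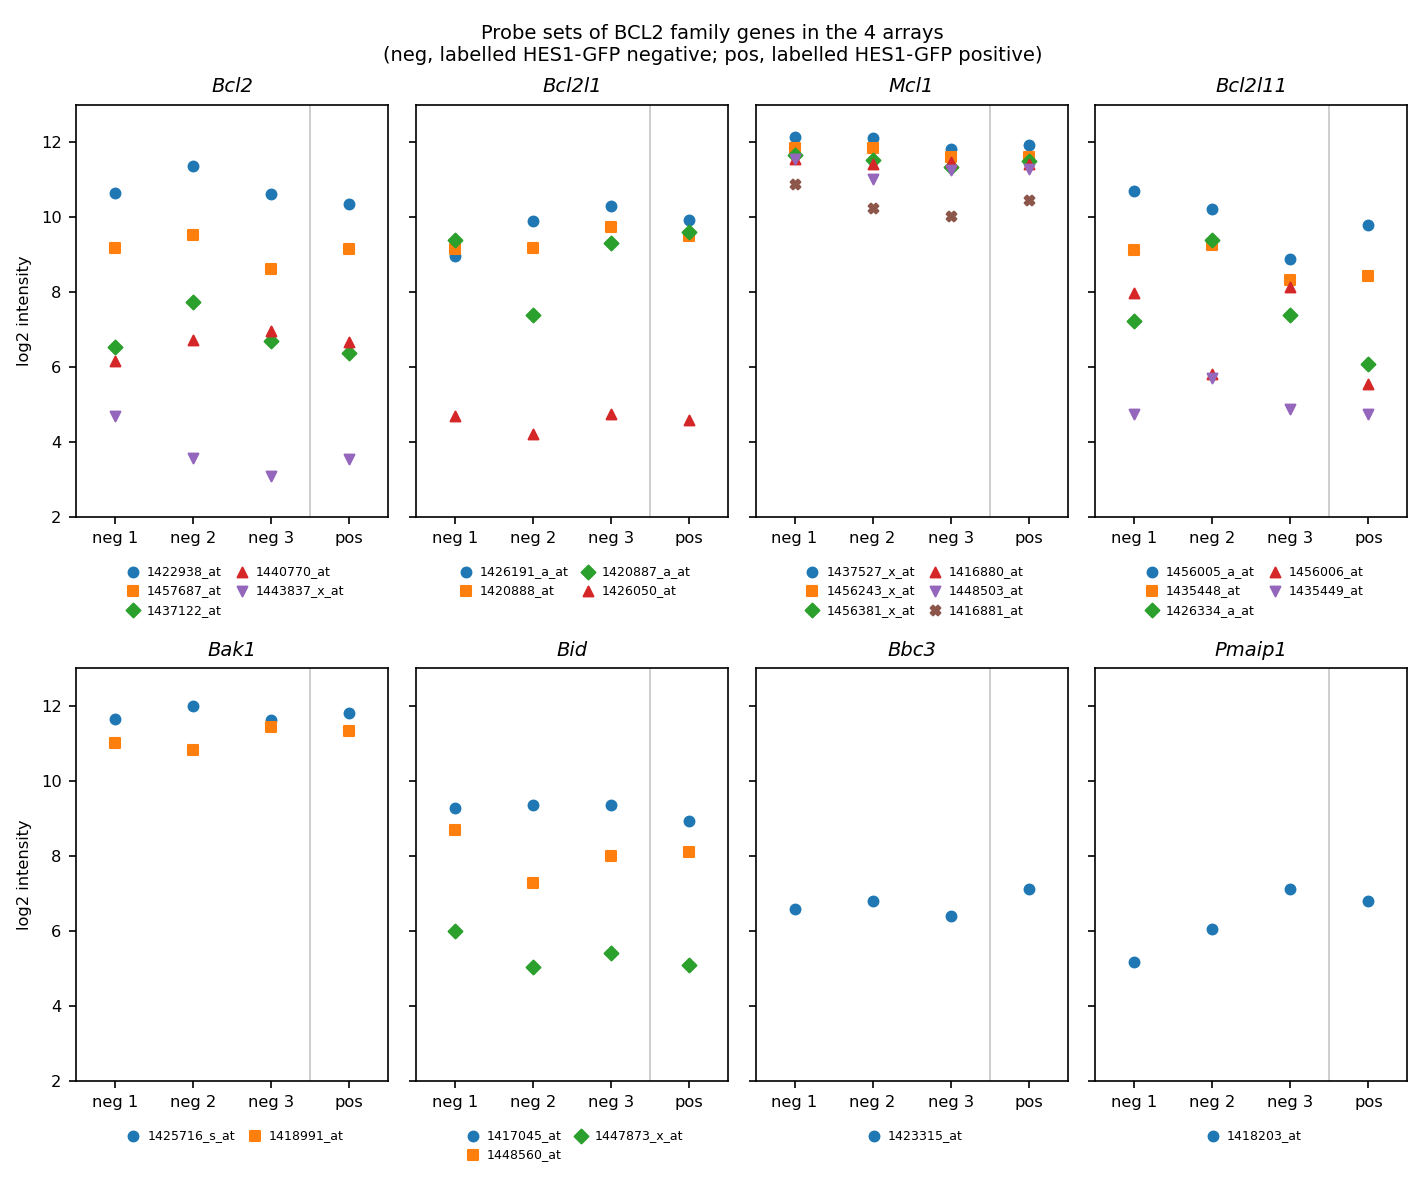
Log2 intensity (vertical axis) of each probe set, 1 marker a probe set, in the 3 arrays labelled HES1-GFP negative (neg) and the array labelled positive (pos), 1 panel a gene. The 6 Mcl1 probe sets lie between 10.04 and 12.14 in every array, while 2 Bcl2l11 probe sets read 5.55 and 6.08 in the array labelled positive. Heights are not comparable between probe sets.

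Mcl1, the short-lived survival protein, differed little between the arrays. Its probe set 1416880_at read 11.56, 11.42 and 11.46 in negative replicates 1, 2 and 3 and 11.42 in the array labelled positive. All 4 values lie within 0.14 log2 units. The difference was -0.06 with a 95% interval of -0.62 to 0.50 (limma, adjusted p = 1.00). Over the 6 Mcl1 probe sets the differences ran from -0.17 to 0.08, and 5 of the 6 were below 0. That count was 3 without negative replicate 1, 6 without replicate 3, and 4 with each array less its own median. The widest range over the 4 arrays was 0.85, in 1416881_at, which read 10.89, 10.24, 10.04 and 10.46. Of the 6, 3 are of the _x_at kind, whose probes can match other sequences too, and these had ranges of 0.25 to 0.33.

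Bcl2, the founding survival gene of the family, had 5 probe sets that did not share an order of the arrays. The brightest, 1422938_at, read 10.65, 11.37 and 10.62 in negative replicates 1, 2 and 3, 10.88 ± 0.43 (SD, n = 3), and 10.34 in the array labelled positive. The array labelled positive was the lowest and negative replicate 2 the highest. The difference was -0.54 with a standard error of 0.40 and a 95% interval of -1.68 to 0.61 (limma, adjusted p = 1.00). Probe set 1437122_at had the same order at its ends, with 6.53, 7.73 and 6.69 against 6.36, a difference of -0.62. Negative replicate 2 lies over 1 log2 unit above the other 3 arrays there. In 1457687_at the array labelled positive, at 9.16, was inside the negative values of 9.17, 9.51 and 8.60. In 1440770_at it was inside too, at 6.68 against 6.16, 6.71 and 6.95. The dim 1443837_x_at read 4.69, 3.56 and 3.09 against 3.55 and sits below the median level of all probe sets, 6.23. Without negative replicate 2 the difference of 1422938_at was -0.29 and that of 1437122_at -0.25.

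Bcl2l1, the survival gene that red cell precursors and platelets need, was higher in the array labelled positive in 4 of 4 probe sets, by 0.03 to 0.89 log2 units, none past the test. It was 3 of 4 without negative replicate 1, where 1426191_a_at became -0.17, and 3 of 4 without replicate 2, where 1426050_at became -0.13. The largest difference came from 1420887_a_at, which read 9.39, 7.40 and 9.29 in negative replicates 1, 2 and 3 and 9.59 in the array labelled positive. A single low value, that of negative replicate 2, makes this difference. It was 0.89 with a 95% interval of -1.83 to 3.62 (limma, adjusted p = 1.00), and 0.25 without replicate 2. No other Bcl2l1 probe set showed that low value to a like extent. In 1420888_at negative replicate 2 was at 9.17, beside 9.16 and 9.74 in replicates 1 and 3 and 9.51 in the array labelled positive. In 1426191_a_at negative replicate 1 was the lowest, with 8.95 against 9.89 and 10.28, and the array labelled positive read 9.91. The fourth, 1426050_at, was dim at 4.68, 4.22, 4.74 and 4.58.

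Bcl2l11, the sensor of cytokine loss, was lower in the array labelled positive than the negative mean in 5 of 5 probe sets, with differences of -0.15 to -1.92 log2 units, none past the test (4 of 5 without negative replicate 1). Its probe set 1426334_a_at had the widest range over the 4 arrays of all 27, 3.30. It read 7.22, 9.38 and 7.40 in negative replicates 1, 2 and 3 and 6.08 in the array labelled positive. The array labelled positive lies over 1 log2 unit below the lowest negative array, and negative replicate 2 lies further still above the rest. The difference was -1.92 with a standard error of 1.02 and a 95% interval of -4.82 to 0.98 (limma, adjusted p = 1.00). Without negative replicate 2 it was -1.23. In 1456006_at the array labelled positive, at 5.55, was again the lowest, but negative replicate 2, at 5.82, stood beside it and away from replicates 1 and 3, at 7.98 and 8.13. That difference was -1.76 with a 95% interval of -4.87 to 1.35. Negative replicate 2 was thus the highest array in the former probe set and near the lowest in the latter. In both, the array labelled positive, at 6.08 and 5.55, lay below the median level of all probe sets, 6.23. With 16 added before log2 the differences were -1.72 for 1426334_a_at and -1.51 for 1456006_at.

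The other Bcl2l11 probe sets placed the array labelled positive nearer to the rest. The brightest, 1456005_a_at, read 10.70, 10.22 and 8.87 in negative replicates 1, 2 and 3 and 9.78 in the array labelled positive. Here negative replicate 3 was the lowest, and the difference of -0.15 became 0.23 without replicate 1. In 1435448_at the values were 9.13, 9.24 and 8.31 against 8.44, so that negative replicates 1 and 2 lay above negative replicate 3 and the array labelled positive. The dim 1435449_at read 4.74, 5.72 and 4.87 against 4.75. Averaged over its 5 probe sets, Bcl2l11 differed by -0.93 log2 units, against -0.15 for the brightest alone. Averaging moved 5 other members by over 1.5 times too, with no change of sign. Bcl2 went from -0.54 to -0.25, Bid from -0.39 to -0.22 and Mcl1 from -0.10 to -0.05, while Bcl2l1 went from 0.21 to 0.32 and Bak1 from 0.05 to 0.14.

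**Figure D2:**
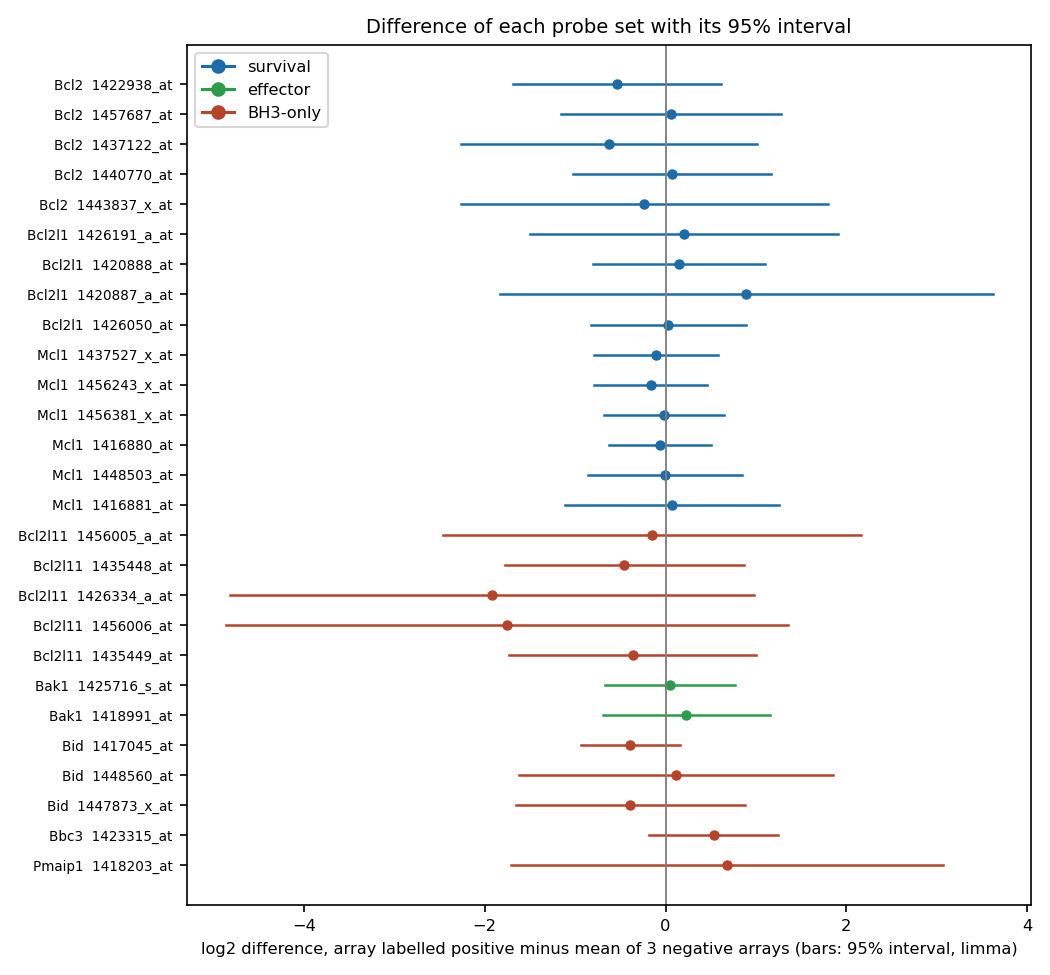
Difference in log2 intensity (horizontal axis) between the array labelled positive and the mean of the 3 negative arrays for each of the 27 probe sets, with limma's 95% interval as a bar and the role of the gene as colour. Every interval holds 0; that of Mcl1 1416880_at spans -0.62 to 0.50 and that of Bcl2l11 1426334_a_at -4.82 to 0.98.

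Bid, the sensor that links death receptors to mitochondria, had 1 probe set with the narrowest negative range of all 27 and 2 with wide ones. The narrow one, 1417045_at, read 9.27, 9.36 and 9.35 in negative replicates 1, 2 and 3, 9.33 ± 0.05 (SD, n = 3), and 8.94 in the array labelled positive. The array labelled positive lies below all 3, whose own range is 0.09. The difference was -0.39 with a standard error of 0.19 and a 95% interval of -0.94 to 0.16 (limma, unadjusted p = 0.117, adjusted p = 1.00). limma draws the spread of a probe set towards that of all probe sets, which widens this interval beyond the 3 negative values themselves. It stayed between -0.42 and -0.37 when each negative replicate was left out in turn. The dim 1447873_x_at differed by as much, -0.39, but read 5.98, 5.02 and 5.40 against 5.08, inside a negative range of 0.96. Its difference was -0.13 without negative replicate 1 and -0.61 without replicate 2. Probe set 1448560_at differed the other way, by 0.11, with 8.68, 7.28 and 8.003 against 8.10, and by -0.24 without replicate 2.

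Bbc3 and Pmaip1, the p53-inducible sensors, have 1 probe set each. Bbc3 read 6.57, 6.79 and 6.40 in negative replicates 1, 2 and 3 and 7.12 in the array labelled positive, which is 0.33 above the highest of them. The difference was 0.53 with a standard error of 0.25 and a 95% interval of -0.18 to 1.24 (limma, unadjusted p = 0.104, adjusted p = 1.00). It was 0.44 to 0.64 when each negative replicate was left out in turn. Pmaip1 read 5.16, 6.03 and 7.12 against 6.79, so that the array labelled positive lay inside the negative range, nearest to replicate 3. Its difference was 0.69 with a 95% interval of -1.70 to 3.07 (limma, adjusted p = 1.00). It was 0.21 without negative replicate 1 and 1.19 without replicate 3. Both genes lie close to the median level over the array, and whether they were detected is not known here.

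Bak1, the membrane-opening effector, stayed within 0.62 log2 units in every array. Its 1425716_s_at read 11.66, 11.99 and 11.62 in negative replicates 1, 2 and 3 and 11.80 in the array labelled positive. Its 1418991_at read 11.00, 10.83 and 11.44 against 11.32. The differences were 0.05, with a 95% interval of -0.67 to 0.77, and 0.23, with an interval of -0.69 to 1.16. In both probe sets the array labelled positive lay inside the negative range.

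Counts against the negative range need no variance model. The array labelled positive lay at least 1 log2 unit below the negative range in 1 of 27 member probe sets, Bcl2l11 1426334_a_at, where the share of all probe sets was 0.631%, and above it by as much in 0 of 27, beside 1.35% of all. Without negative replicate 2 a second Bcl2l11 probe set, 1456006_at, joined it, beside 1.25% of all below. With 16 added before log2 the count was 0 of 27, beside 0.36% of all below. With no minimum distance it lay below the range in 7 member probe sets, where 23.6% of all did so, and above it in 2, where 23.2% of all did so. The 7 were those of Bcl2 (1422938_at and 1437122_at), Mcl1 (1456243_x_at and 1416880_at), Bcl2l11 (1426334_a_at and 1456006_at) and Bid (1417045_at), and the 2 were Bcl2l1 1420887_a_at and Bbc3 1423315_at. For both Mcl1 probe sets the distance to the range was -0.01 log2 units.

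The arrays also varied among themselves, negative arrays included. A range of at least 1 log2 unit over the 4 arrays was seen in 10 of 27 member probe sets, beside 29% of all: 3 of Bcl2, 3 of Bcl2l11, 2 of Bcl2l1, 1 of Bid and 1 of Pmaip1. Bright probe sets make up 23 of the 27 members, counting those above the median level. Over these 23 the median range was 0.85, and over all probe sets above the median level 0.75. Negative replicate 2 lay at least 1 log2 unit outside the other 3 arrays in 3 of 27 member probe sets (Bcl2 1437122_at, Bcl2l1 1420887_a_at and Bcl2l11 1426334_a_at), beside 3.1% of all. The same count was 1 for negative replicate 1 (Bcl2 1443837_x_at), beside 2.92% of all, and 0 for negative replicate 3, beside 2.04%. Probe sets of 1 gene share their target, so these counts are not of independent items.

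The closest arrays over the member probe sets above the median level were negative replicate 3 and the array labelled positive, with a median absolute difference of 0.274 log2 units (0.264 over all such probe sets). Negative replicates 2 and 3 were the furthest apart, at 0.564 (0.373 over all such probe sets), followed by negative replicates 1 and 2, at 0.476 (0.337). The other 3 pairs were at 0.323 to 0.337 over the members, and at 0.361 to 0.377 over all such probe sets.

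**Figure D3:**
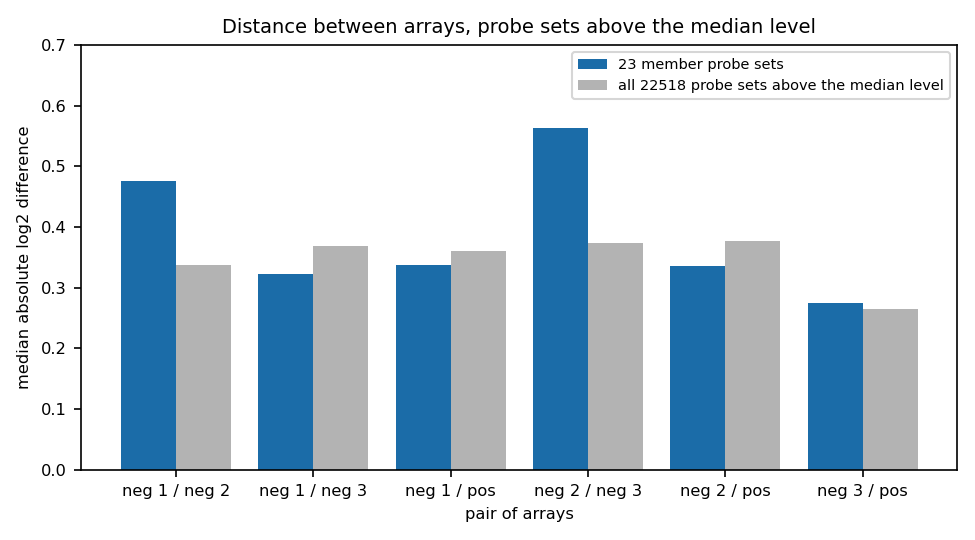
Median absolute log2 difference (vertical axis) for each of the 6 pairs of arrays, over the 23 member probe sets above the median level (blue) and all probe sets above it (grey). The pairs of negative replicate 2 with the other negative replicates reach 0.476 and 0.564 over the members, above the other 4 pairs at 0.274 to 0.337.

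Probe sets of a member often disagreed in sign, as they do for genes in general. Of 5 members with 3 or more probe sets, 3 (Bcl2, Mcl1 and Bid) had differences of both signs, beside 71.7% of the 4315 genes with as many probe sets. In Bcl2l1 all differences were above 0 and in Bcl2l11 all were below.

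At their brightest probe set, Pmaip1 and Bcl2l11 had the widest ranges over the 4 arrays, 1.96 and 1.83 log2 units. Among 18193 genes the 3 with values most like those of Pmaip1, after each gene's own mean was taken off, were Pyurf, Dnph1 and Glrp1, at root mean square distances of 0.07 to 0.08 log2 units over 4 arrays. Those most like Bcl2l11 were Zfp707, Rasgef1b and Mcam, at distances of 0.05 to 0.08. These distances describe 4 arrays only.

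FOXO factors are set beside Bcl2l11 as its known activators. Foxo1 was named as 1 of the 3 regulators with the largest difference, and Foxo3 and Foxo4 were added after their values were seen. Foxo1 read 10.85, 11.09 and 9.37 in negative replicates 1, 2 and 3 and 9.57 in the array labelled positive, so negative replicates 1 and 2 were the high arrays. This is the brightest of 4 Foxo1 probe sets, whose differences ran from -1.83 to -0.11. Bcl2l11 1435448_at and 1456005_a_at have the same split of the arrays, and 1426334_a_at, 1456006_at and 1435449_at do not. Foxo3 read 11.97, 11.98 and 12.17 against 12.33, and Foxo4 9.80, 10.36 and 10.14 against 9.99. The difference was -0.86 for Foxo1, 0.29 for Foxo3 and -0.11 for Foxo4 (limma, adjusted p = 1.00 for each).

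Markers of other blood cells split the arrays as Foxo1 did. B lineage markers (10 of 11 measured) had a summed linear intensity of 27608 and 26512 in negative replicates 1 and 2, against 4544 for negative replicate 3 and 4417 for the array labelled positive. Macrophage markers (10 of 10) summed to 21342 and 20248, then 3089 and 3727, and T lineage markers (4 of 6) to 1254 and 1280, then 181 and 168. Granulocyte markers (9 of 9) summed to 46039 and 48753, then 83700 and 84665, and were lower in the arrays where Pmaip1 was lower. The erythroid and hepatoblast sums, given below, were lower in those arrays too, though Tfrc of the erythroid and Alb of the hepatoblast list were higher there. The mean log2 level of the hepatoblast markers did not split the arrays so. It was 8.04, 7.62 and 7.93 in negative replicates 1, 2 and 3 and 8.06 in the array labelled positive. With 4.271 as the lowest deposited value no marker could read 0, so these sums do not show that a marker was detected. Vpreb1, a part of the pre-B cell receptor, was at 12.77 and 12.64, then 10.85 and 10.54, and C1qb, a complement chain of macrophages, at 12.97 and 12.94, then 10.08 and 10.89. S100a9, a granulocyte protein, was at 13.99 and 13.96, then 14.20 and 14.22.

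The sort for cells without lineage markers is meant to remove mature cells of these types, though the labels do not name the antibodies. In bulk RNA, fewer cells of a type and less RNA per cell cannot be told apart. The part of these markers in the values of Bcl2l11, Foxo1 and Pmaip1 was not tested. Progenitor markers (9 of 11) summed to 18982, 16045, 17498 and 17723, and erythroid markers (7 of 9) to 17932, 18524, 21400 and 21081. Endothelial markers (7 of 7) summed to 3630, 2903, 834 and 702, megakaryocyte markers (5 of 6) to 2231, 2356, 1372 and 1912, and hepatoblast markers (7 of 7) to 2304, 1644, 2735 and 2623.

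**Figure D4:**
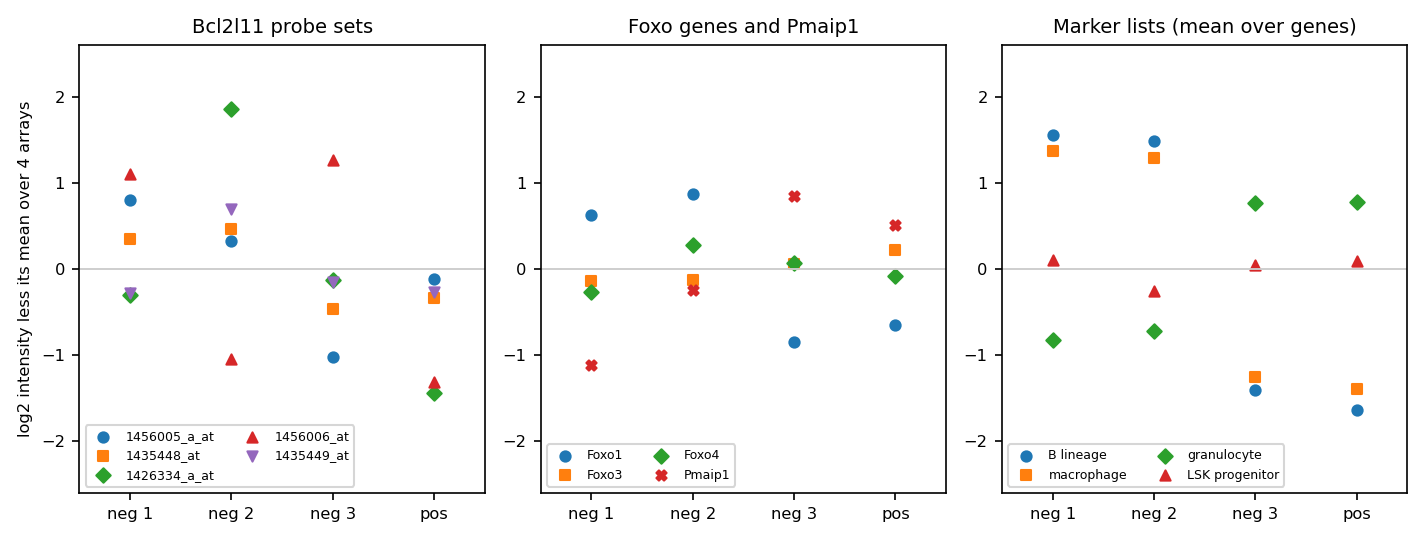
Log2 intensity less the mean over the 4 arrays (vertical axis) for the 5 Bcl2l11 probe sets, for Foxo1, Foxo3, Foxo4 and Pmaip1, and for the mean of 4 marker lists, in each array. B lineage and macrophage markers are high in negative replicates 1 and 2, as is Foxo1, granulocyte markers are low there, and the Bcl2l11 probe sets follow no single order.

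The rest of the family and its pathway passed the test nowhere, and neither did any other gene on the array. Of 12 other BCL2 family genes measured, limma called 0, 5 lay below the negative range and 0 above, with a median difference of -0.11, where over all genes 23% lay below, 23.6% above and the median was 0.00. The median of the 12 was -0.06 without negative replicate 1 and -0.03 without replicate 2. Bnip3, a mitophagy receptor, read 9.86, 10.36 and 10.09 in negative replicates 1, 2 and 3 and 9.59 in the array labelled positive. Bcl2l14 read 7.13, 8.65 and 7.11 against 7.17, and Bcl2l15 read 4.74, 6.29 and 4.81 against 5.56. At these probe sets, the brightest of each gene, negative replicate 2 was the high array in all 3. The 2 probe sets of Bcl2l14 differed in sign, at -0.46 for the brightest and 1.63 for the other.

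Of 15 caspases, apoptosome parts and inhibitors of apoptosis, 4 lay above the range and 2 below (median 0.06), and limma called 0. The median was 0.16 without negative replicate 2 and -0.0035 without replicate 3. Birc5 (survivin), an inhibitor of apoptosis family member needed in mitosis, read 10.92, 11.05 and 11.36 against 11.57. Htra2, a mitochondrial protease that blocks inhibitors of apoptosis once released, read 9.70, 10.29 and 10.66 against 10.72. Birc3, an inhibitor of apoptosis induced by NF-kB, read 8.67, 9.43 and 8.67 against 8.41.

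Of 7 death receptor genes, 1 lay above and 1 below (median 0.15), and limma called 0. Without negative replicate 2 the median was 0.0019. Tradd, an adaptor of tumour necrosis factor receptor 1, read 8.22, 9.59 and 7.68 against 9.43, Cflar, an inhibitor of caspase-8, 8.25, 9.59 and 8.30 against 9.02, and Fas 3.38, 3.69 and 3.56 against 3.28. Fas thus sat far below the median level in every array. Values are those of the brightest probe set of each gene. Over all probe sets of the gene the differences ran from -0.13 to 0.93 for Tradd and from -0.52 to 0.37 for Cflar.

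Of 14 genes of the p53 axis, 2 lay above and 2 below (median -0.07), and limma called 0. The median was 0.02 without negative replicate 1 and 0.03 without replicate 2. Sesn2, a stress-induced inhibitor of growth signalling, read 8.58, 8.16 and 7.48 against 7.12, and Trp53inp1, a p53-induced protein of cell death and autophagy, 11.49, 11.32 and 9.29 against 10.01. Zmat3, an RNA-binding p53 target, read 6.62, 7.42 and 7.34 against 7.73. Of the 2 Sesn2 probe sets, the brightest, given here, differed by -0.96 and the other by 0.29. Of 17 regulators of BCL2 family members, 4 lay above and 1 below (median 0.07, and 0.21 without negative replicate 2), and limma called 0. Stat5a, which carries cytokine signals to Bcl2l1 and other survival genes, read 9.91, 9.95 and 10.56 against 10.71, and Bcl6, a repressor, 7.77, 8.86 and 8.16 against 8.75.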

How the data were processed

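Probe set intensities were deposited on a linear scale (4.271 to 27451.5), made by the authors with RMA per the submitters' processing notes; its version is not given in the sources used here. That the scale is linear follows from the values. RMA equalizes arrays, which hides any difference in RNA content. Amplification of 5 ng of RNA, per the labels' protocols, can add noise.

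Values were turned into log2 with no pseudocount. After 64 control probe sets were left out, 34945 of 45037 carried 1 gene symbol in GEO's platform annotation, 932 several and 9160 none; 34741 of those with 1 matched RefSeq (GRCm38.p6) by gene ID. Positive was compared with negative by limma 3.58.1 (R 4.3.3; lmFit, eBayes, two-sided, Benjamini-Hochberg over all probe sets, threshold 0.05), and again with the probe set of highest mean for each of 18193 genes. The fit was also run on simulated data, in which the positive array was given the same spread as the others. Those runs cannot check the assumption that the lone positive array varies like the negative ones. Members and lists were chosen with earlier results of these data known. Named are the members, Hes1, up to 3 genes a pathway list by size of difference, the genes nearest to the 2 most variable members, and the brightest of each marker list shown. Foxo3 and Foxo4 were added after their values were seen. Alternatives were cyclic loess, median centring, 16 added before log2, a filter at the median level, trend and robust settings, treat at 0.5, averaged probe sets and leaving out each negative replicate.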

Additional observations from a re-analysis of the deposited data

How the results depend on the processing

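limma called no member probe set or member gene under any alternative run for them. It called no gene of the pathway lists either, for which averaged probe sets were not run. Nothing else on the array was called in these settings, averaged probe sets aside, so the lack of calls is not particular to the members. The count of member probe sets at least 1 log2 unit outside the negative range was 1, and it was 0 with 16 added before log2 and 1 to 2 when each negative replicate was left out. Of all probe sets 0.631% lay as far below the range and 1.35% as far above it. With 16 added before log2 these shares were 0.36% below and 0.853% above. Without replicates 1, 2 and 3 they were 1.2%, 1.25% and 2.64% below, and 2.07%, 2.04% and 2.87% above. Of 193 recomputed differences 12 changed sign, none of them called in any setting. With each array less its own median Mcl1 1448503_at became 0.0018. The others changed sign on leaving out 1 negative replicate, with these ranges over the 3 refits. Without replicate 1: Bcl2 1440770_at (-0.15 to 0.24), Bcl2 1443837_x_at (-0.58 to 0.22), Bcl2l1 1426191_a_at (-0.17 to 0.49), Mcl1 1456381_x_at (-0.11 to 0.055), Mcl1 1448503_at (-0.14 to 0.14) and Bcl2l11 1456005_a_at (-0.68 to 0.23). Without replicate 2: Bcl2l1 1426050_at (-0.13 to 0.13) and Bid 1448560_at (-0.24 to 0.46). Without replicate 3: Bcl2 1457687_at (-0.19 to 0.27), Mcl1 1416881_at (-0.10 to 0.32) and Bak1 1425716_s_at (-0.016 to 0.17). The medians of the caspase and p53 lists changed sign on leaving out 1 negative replicate. Fewer arrays enter these refits. No paired analysis was possible because the labels state no pairing of arrays between the groups. With 1 positive array, no member difference seen here could be told from the spread between negative arrays by the limma fit.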
